A study of Mus musculus with 21 samples.

Results

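Cx3cr1-high M2 macrophages were followed through muscle regeneration as the cells to which the authors gave the label M2 Macro. (Cx3cr1_hi) after integrating their samples with Harmony, a method that removes differences between data sets before cells are clustered. The label was held by 6161 of 87822 cells (7.02%), and by 6161 of the 83925 cells that had any Harmony label. It was the sixth most abundant of 23 labels and made up 18.0% of the 34172 cells with a monocyte or M2 macrophage label. The cells came from tibialis anterior muscles of 21 female C57Bl/6J mice aged 20 months, with 1 mouse per sample. Muscle was taken from 4 mice without injury and from mice killed 1, 2, 3.5, 5 and 7 days post-injury (dpi), with 4 mice at 1 dpi, 3 at 2 dpi, 4 mice at 3.5 dpi, 3 mice at 5 dpi and 3 mice at 7 dpi. The injury was an injection of notexin, a venom toxin that lyses muscle fibres and spares the stem cells that rebuild them. All mice were old, so the time course describes regeneration in aged muscle without a younger group beside it. Whole muscles were dissociated enzymatically and captured with 10x Chromium v3 chemistry without sorting. Transcripts were counted by unique molecular identifiers (UMIs), the tags attached to single RNA molecules at capture.

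Macrophages in injured muscle arise largely from blood monocytes that enter the tissue, clear debris and then take on a repair-associated state. The name M2 is a shorthand for that later state. Cx3cr1 is the receptor for fractalkine and is carried by many tissue macrophages. The patrolling monocyte label of these data was described by the authors as negative for Cx3cr1 and should not be read as a Cx3cr1-rich monocyte. C1qa, a subunit of complement C1q, and Mrc1, the mannose receptor, are commonly used to recognise mature tissue macrophages. No expression values of individual genes were analysed here, so the label could not be checked against Cx3cr1, C1qa or Mrc1. It was compared instead with the labels that the authors gave the same cells after integration with BBKNN and with Scanorama, which connect or align samples by other rules.

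Each mouse contributed between 974 and 10556 cells and between 5602464 and 70730170 UMIs. At most 0.418% of cell barcodes were shared by any of the 210 pairs of samples, and 5 pairs shared a barcode between their Cx3cr1-high M2 cells, with 1 barcode each. Several libraries stood apart in a way that touches the results. The 5 dpi replicate A had a share of Cx3cr1-high M2 cells (12.8%) well above that of the other 5 dpi mice (6.62% and 6.33%). The 2 dpi replicate A was sequenced to only 15035 reads per cell and uninjured replicate B to only 15835. Uninjured replicate B held 11 of the uninjured Cx3cr1-high M2 cells, more than any other uninjured mouse. The 7 dpi replicate C had a lower Cx3cr1-high share among M2 macrophages than the other 7 dpi mice. The uninjured mice held 19 of these cells among 11683 (0.163%, exact Clopper-Pearson 95% interval 0.0979 to 0.254%), so nearly all that follows rests on injured muscle. Intervals of this kind cover counting error only.

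By the Harmony label, Cx3cr1-high M2 macrophages were rare in uninjured muscle, numerous at 1 dpi and at their highest share at 3.5 dpi. The time of the maximum depended on the integration method, as the shares under the other labels, given after these, show. In uninjured mice there were 3, 11, 4 and 1 of them in replicates A to D, or 0.132%, 0.322%, 0.0795% and 0.103% of all cells. At 1 dpi their share was 6.01%, 3.43%, 5.5% and 6.02% in replicates A to D. At 2 dpi it was 7.16%, 6.92% and 7.79% in replicates A to C. Every injured mouse up to this day lay above every uninjured mouse, and the 2 dpi mice all lay above the 1 dpi mice.

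At 3.5 dpi the share reached 14.0%, 12.7%, 13.9% and 15.8% in replicates A to D. At 5 dpi it was 12.8% in replicate A but 6.62% and 6.33% in replicates B and C. At 7 dpi it had come down to 2.76%, 3.89% and 2.61%. The 3.5 dpi mice did not overlap with any earlier time point, whereas 5 dpi replicate A fell inside the 3.5 dpi range and the other 5 dpi mice fell below it. Counting error was small beside these differences. The interval of 5 dpi replicate A, for example, ran from 11.9 to 13.7%.

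**Figure D1:**
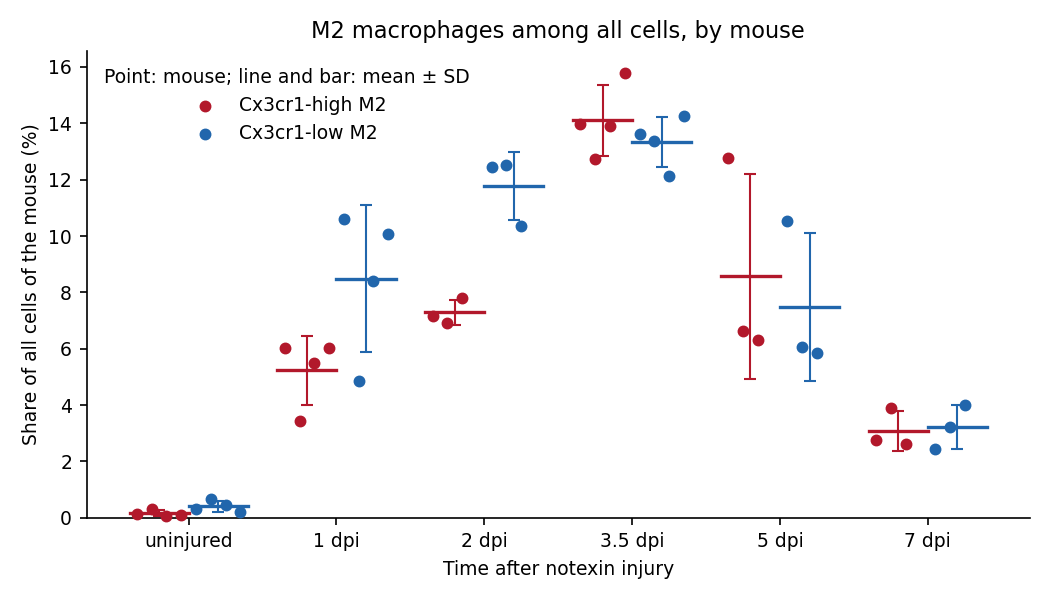
Share of all cells of a mouse (%, y axis) with the Cx3cr1-high (red) or Cx3cr1-low (blue) M2 label, by time after notexin injury (x axis); each point is a mouse, and lines and bars are the mean ± SD. The Cx3cr1-high label was highest at 3.5 dpi, between 12.7% and 15.8%, and lower than the Cx3cr1-low label in every mouse at 1 and 2 dpi.

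The mean was 0.159% ± 0.111 (SD, n = 4) in uninjured muscle. After injury it was 5.24% ± 1.23 (n = 4) at 1 dpi, 7.29% ± 0.450 at 2 dpi (n = 3), 14.1% ± 1.26 at 3.5 dpi (n = 4), 8.58% ± 3.64 at 5 dpi (n = 3) and 3.09% ± 0.700 at 7 dpi (n = 3). Over the 6 time points the share differed (F statistic against permuted mice, a permutation test, p = 1e-05, the smallest that 100000 resamples can give; adjusted p = 4.6e-05 by Benjamini-Hochberg over 23 labels). A change over time was common among cell types, since 78.3% of labels passed the same test. With uninjured mice left out, an alternative chosen after seeing the data, the adjusted p was 0.000307 and the largest difference from 1 dpi was 8.87 percentage points, at 3.5 dpi. A share rises when other cells are lost as well as when its own cells are gained, and these cannot be told apart here.

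Cells that BBKNN gave the name had their highest mean share at 5 dpi, 22.4% ± 9.88 (SD, n = 3), with 21.1% ± 7.08 (n = 4) at 3.5 dpi and only 1.59% ± 0.589 (n = 4) at 1 dpi. Those that Scanorama gave the name were highest at 1 dpi, 2.37% ± 1.74 (SD, n = 4), and made up 0.988% ± 0.658 (n = 4) at 3.5 dpi. At 3.5 dpi the difference from uninjured muscle was 13.9 percentage points by Harmony, 20.9 by BBKNN and 0.962 by Scanorama, and the share differed over time under each (largest adjusted p = 0.00151, permutation test).

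By UMIs the Harmony label gave a similar course. The cells held 0.203% ± 0.132 (SD, n = 4) of a mouse's UMIs in uninjured muscle, 5.75% ± 0.774 at 1 dpi (n = 4), then 12.3% ± 0.799 (3.5 dpi, n = 4) and 3.15% ± 0.529 (7 dpi, n = 3). At 3.5 dpi their share of UMIs was lower than their share of cells. At 1 dpi it was higher, on the means over mice.

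Each time point after injury exceeded uninjured muscle in the count model (edgeR quasi-likelihood test on cell numbers, Benjamini-Hochberg over the labels of a comparison). The log2 fold change was 4.97 (SE 0.467, adjusted p = 1.4e-09) at 1 dpi, where 65.2% of labels passed the threshold of 0.05. It was 5.44 (SE 0.483, adjusted p = 6.21e-10) at 2 dpi, with 82.6% of labels past the threshold. At 3.5 dpi it was 6.39 (SE 0.489, adjusted p = 2.97e-11), also with 82.6% of labels called. It was 5.67 (SE 0.486, adjusted p = 3.08e-10) at 5 dpi against a background of 69.6%, and still 4.20 (SE 0.469, adjusted p = 5.24e-08) at 7 dpi against 43.5%. These folds rest on only 19 uninjured cells. By a two-sided exact permutation test, for which 0.0286 is the smallest p that 4 against 4 or 4 against 3 mice allow, the adjusted p was 0.0346 at 3.5 dpi and between 0.0548 and 0.0657 at the other times.

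Steps between consecutive time points were smaller. From 1 to 2 dpi the log2 fold change was 0.47 (SE 0.395, adjusted p = 0.468), in a comparison in which 8.7% of labels were called. From 2 to 3.5 dpi the mean share went from 7.29% to 14.1% without overlap between mice, yet the log2 fold change of 0.95 (SE 0.405) had an adjusted p of 0.107 in the same edgeR test, against a background of 4.35%. From 3.5 to 5 dpi it was -0.72 (SE 0.402, adjusted p = 0.168), with 13% of labels called. Without 5 dpi replicate A this step was -1.12 with an adjusted p of 0.0478, and with TMM scaling it was -1.88 (adjusted p = 0.00719). It was above 0 with the labels of BBKNN (0.085, adjusted p = 0.896) and of Scanorama (0.22, adjusted p = 0.921), so neither its direction nor its call was settled.

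The fall from 5 to 7 dpi passed the threshold, with a log2 fold change of -1.47 (SE 0.434, adjusted p = 0.0278 in edgeR), and 8.7% of labels did so. No 7 dpi mouse overlapped with a 5 dpi mouse. This call was lost without 5 dpi replicate A (-1.07, adjusted p = 0.273), without 7 dpi replicate A (-1.40, adjusted p = 0.114) and without 7 dpi replicate C (-1.37, adjusted p = 0.0575). For 3 against 3 mice the exact test cannot give a p below 0.1, and that was its value.

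Set beside the other myeloid labels, the cells had their highest mean share at the same time as the Cx3cr1-low M2 macrophages and the patrolling monocytes, and later than the neutrophils and inflammatory monocytes. Neutrophils, the earliest white cells to enter injured tissue, had their highest mean share at 1 dpi (11.6% ± 4.44, SD, n = 4), as did inflammatory monocytes (18.6% ± 4.64, n = 4). Cxcl10+ monocytes were highest at 2 dpi (3.37% ± 0.333, n = 3). Patrolling monocytes (25.4% ± 0.586, n = 4) and Cx3cr1-low M2 macrophages (13.3% ± 0.883, n = 4) were highest at 3.5 dpi, and dendritic cells, which carry antigen to lymph nodes, at 5 dpi (6.03% ± 1.88, n = 3). No test compared the times of these maxima.

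Within the M2 macrophages, the balance moved towards the Cx3cr1-high label after 2 dpi. Among cells with either M2 label, the Cx3cr1-high share was 36.2%, 41.4%, 39.5% and 37.4% in replicates A to D at 1 dpi. It was 36.5%, 35.6% and 42.9% in replicates A to C at 2 dpi. It was then 50.7%, 48.8%, 53.4% and 52.6% in replicates A to D at 3.5 dpi. No 1 or 2 dpi mouse reached the 3.5 dpi range.

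The share stayed there at 5 dpi, at 54.8%, 52.1% and 52.0% in replicates A to C. It was 53.1% and 54.6% in replicates A and B at 7 dpi, but 39.3% in replicate C, which fell back into the range of 1 and 2 dpi. Replicate C had the fewest M2 macrophages of the 7 dpi mice, 150 cells against 311 and 302. In uninjured muscle, where only replicates B and C had the minimum of 20 M2 cells, the share was 32.4% and 14.8%.

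The Cx3cr1-high share of M2 macrophages differed over time (permutation test of the F statistic over 19 mice, p = 2e-05). The mean was 38.6% ± 2.33 (SD, n = 4) at 1 dpi and 53.0% ± 1.6 (n = 3) at 5 dpi, a difference of 14.4 percentage points. Leaving out each mouse in turn gave differences between 13.5 and 15.3 points. Unlike the share of all cells, this ratio does not move when stromal or endothelial cells are lost. With the labels of BBKNN in place of Harmony's, the difference was 51.9 points (permutation p = 0.0017). With those of Scanorama, which left 13 mice with enough M2 cells, it was 6.72 points (permutation p = 0.047).

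**Figure D2:**
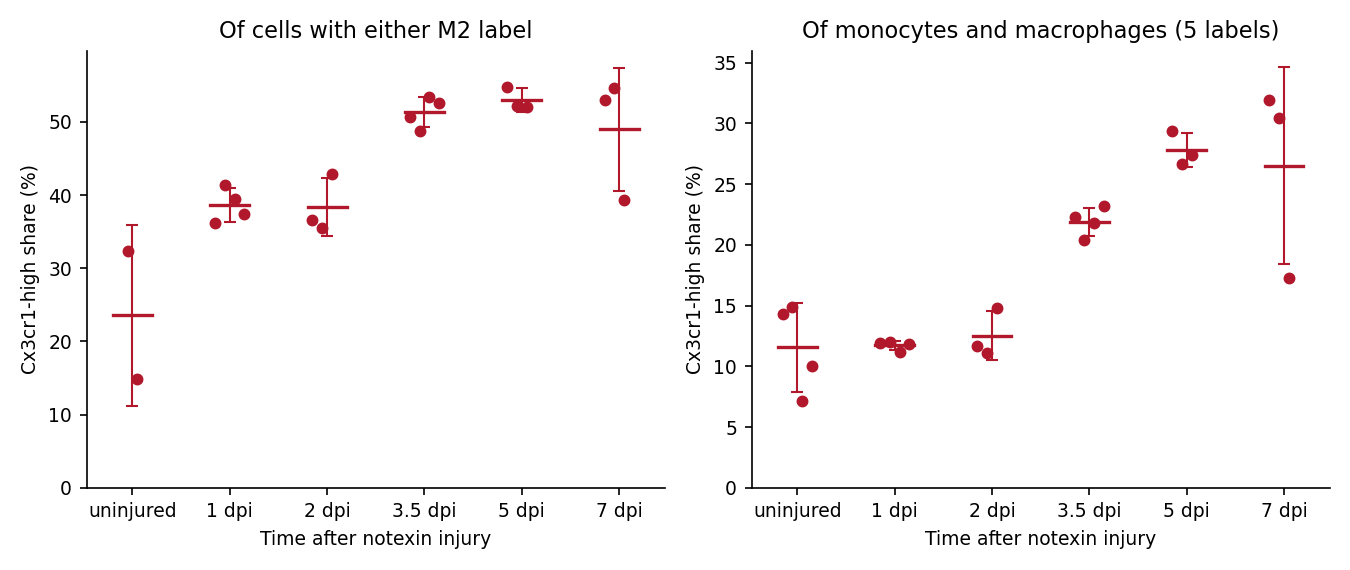
Cx3cr1-high M2 cells as a share (%, y axes) of cells with either M2 label (left, mice with at least 20 such cells) and of the 5 monocyte and M2 macrophage labels together (right), by time after injury (x axes); points are mice, and lines and bars are the mean ± SD. The left share stepped up from 35.6-42.9% at 1 and 2 dpi to 48.8-54.8% at 3.5 and 5 dpi, and the right share rose until 5 dpi.

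As a share of all monocytes and M2 macrophages, Cx3cr1-high M2 cells made up 11.6% ± 3.66 (SD, n = 4) in uninjured muscle, 11.7% ± 0.372 (n = 4) at 1 dpi and 12.5% ± 2.01 at 2 dpi (n = 3). At 3.5 dpi they made up 21.9% ± 1.15 (n = 4), and later 27.8% ± 1.37 (5 dpi, n = 3) and 26.5% ± 8.07 (7 dpi, n = 3, with 17.3% in replicate C). On this denominator the early difference from uninjured muscle did not pass the threshold, with log2 fold changes of -0.01 at 1 dpi (adjusted p = 0.97 in edgeR) and 0.07 at 2 dpi (adjusted p = 0.942). The step from 2 to 3.5 dpi was called instead, at 0.82 (adjusted p = 1.42e-05), and the step from 3.5 to 5 dpi turned into a rise of 0.34 (adjusted p = 0.0234). The later fall, from 5 to 7 dpi, was -0.04 (adjusted p = 0.88). The uninjured mice had only 10 to 74 cells with these labels. The p-values on this denominator were adjusted over its 5 labels only. As shares of all cells, patrolling monocytes went from 25.4% at 3.5 dpi to 8.21% at 5 dpi. Cx3cr1-high M2 cells went from 14.1% to 8.58%, so the rise on this denominator was not a rise among all cells.

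BBKNN gave the same name to 4073 of the 6161 cells (66.1%), in a proportion that differed with the time after injury, and Scanorama gave it to 34 of them. Both placed nearly all of them among myeloid cells, 98.9% by BBKNN and 99.4% by Scanorama. Most of the cells with another name were called monocytes. Some were called dendritic cells, up to 18.5% by Scanorama in 1 dpi replicate C and 27.3% of 11 cells by BBKNN in uninjured replicate B.

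At 1 dpi, BBKNN called most of them inflammatory monocytes, which enter injured tissue from the blood. That share was 84.6%, 58.5%, 69.5% and 92.2% in replicates A to D, and the same-name share was 4.57%, 29.3%, 17.3% and 5.63%. At 2 dpi, BBKNN called 48.3%, 54.7% and 43.5% of them in replicates A to C infiltrating monocytes, a label that Harmony did not use, and gave 30.4%, 22% and 27% the same name. At these early times the cells were M2 macrophages by the Harmony label and mostly monocytes by the BBKNN label.

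At 3.5 dpi the same-name share was 76.9%, 54.6%, 88.9% and 87.5% in replicates A to D. Most of the rest were called patrolling monocytes, 40.9% in replicate B and between 9.70% and 20.1% in the others. At 5 dpi the same-name share was 96.6%, 97.3% and 94.0% in replicates A to C, and at 7 dpi it was 91.5%, 93.3% and 96.6%. No mouse of 1 or 2 dpi overlapped with any mouse of 3.5 dpi or later. In uninjured replicate B the same-name share was 63.6% of 11 cells, and the few cells of the other uninjured mice all kept the name.

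The same-name share under BBKNN rose from a mean of 14.2% ± 11.6 (SD, n = 4) at 1 dpi to 96.0% ± 1.73 (n = 3) at 5 dpi, and it differed over time (permutation test of the F statistic over 17 mice, adjusted p = 2e-05 over both methods). Without any single mouse the difference of 81.8 percentage points stayed between 78.6 and 86.8. Under Scanorama the same-name share was 1.22% at 1 dpi and 0.202% at 7 dpi on the means over mice, and no difference over time was found (adjusted p = 0.512). Scanorama called the cells inflammatory monocytes at 1 dpi (73.4% ± 21.3, n = 4), infiltrating monocytes at 2 dpi (60.3% ± 4.83, n = 3) and patrolling monocytes later, with 98.6% ± 0.580 at 3.5 dpi (n = 4), 97.8% ± 0.318 at 5 dpi (n = 3) and 95% ± 2.52 at 7 dpi (n = 3). The cells on each day are different cells, all chosen for their Harmony label, so these shares describe how BBKNN and Scanorama divided them.

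**Figure D3:**
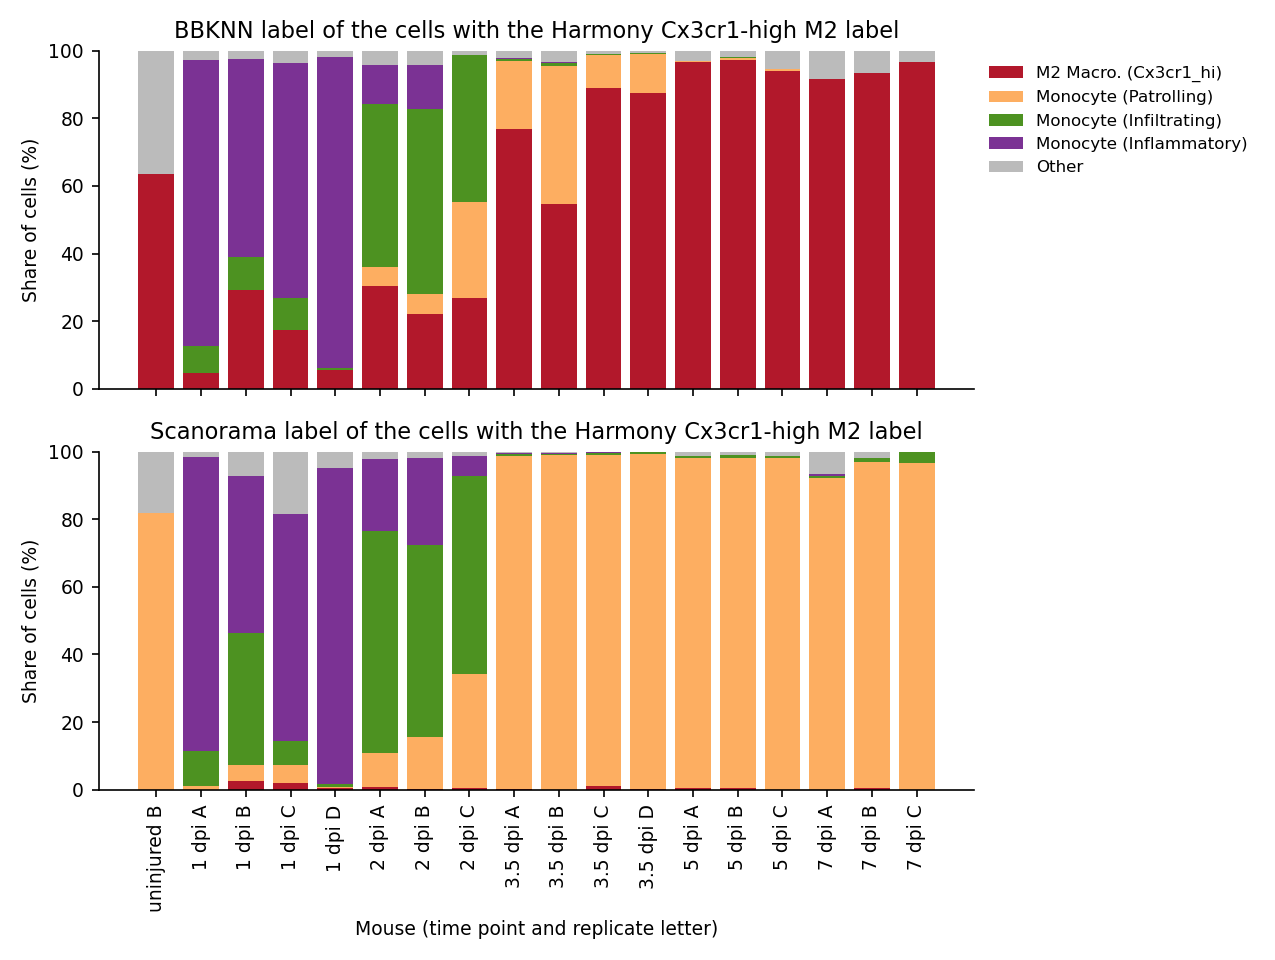
Labels (share of cells, %, y axes) that BBKNN (top) and Scanorama (bottom) gave to the cells with the Harmony Cx3cr1-high M2 label, for each mouse with at least 10 such cells (x axis). In BBKNN the same name (red) covered 4.57-30.4% of cells at 1 and 2 dpi, 54.6-88.9% at 3.5 dpi and 91.5-97.3% later, while in Scanorama the cells were mostly patrolling monocytes (orange) from 3.5 dpi.

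The name also covered different cells in each method. BBKNN gave it to 9532 cells, of which 42.7% had the same name in Harmony, 13.8% were inflammatory monocytes, 12.2% Cx3cr1-low M2 macrophages, 11.8% Cxcl10+ monocytes and 8.78% patrolling monocytes there. In Scanorama it was held by 870 cells, of which 60.7% had no Harmony label. The authors' label from before removal of noisy cells called 60.9% of the Harmony Cx3cr1-high M2 cells inflammatory monocytes, 34.1% patrolling monocytes and 4.37% M2 macrophages.

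Restricting the count to cells with the name in both Harmony and BBKNN, an alternative chosen after seeing the data, lowered the early shares and left the highest mean at 3.5 dpi. The mean share of all cells was then 0.130% ± 0.0546 (SD, n = 4) in uninjured muscle. At 1 dpi it was 0.641% ± 0.388 (n = 4), at 2 dpi 1.94% ± 0.359 (n = 3), at 3.5 dpi 11% ± 2.95 (n = 4), at 5 dpi 8.25% ± 3.56 (n = 3) and at 7 dpi 2.89% ± 0.639 (n = 3). The rise over uninjured muscle at 1 dpi was a log2 fold change of 2.23 (adjusted p = 0.0012 in edgeR) in place of 4.97. The steps from 1 to 2 dpi (1.62, adjusted p = 0.0202) and from 2 to 3.5 dpi (2.50, adjusted p = 0.000559) both passed the threshold on these cells. The fall from 5 to 7 dpi did not (-1.51, adjusted p = 0.0618). The restriction itself kept a growing part of the Harmony cells up to 3.5 dpi. Mean same-name shares under BBKNN were 14.2% (1 dpi), 26.5% (2 dpi) and 77.0% (3.5 dpi). Both rising steps therefore contain this change in label match, and its part in them was not tested.

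Within a mouse, cells that BBKNN gave the same name could be set beside those it renamed in 15 mice with at least 10 of each. The matched cells had the lower median number of UMIs in 11 of 15 mice and the higher ribosomal protein share in 11 of 15. They had the higher transcription factor share in 12 of 15. The mitochondrial share was higher in matched cells in 7 mice and lower in 8. These are descriptions of cells clustered on the same transcripts and carry no test.

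The RNA content of the cells was described by the authors' per-cell measures, taken as the median over the Cx3cr1-high M2 cells of each mouse with at least 10 of them. Of the uninjured mice, only replicate B had that many (11 cells), so tests over time used the 17 injured mice. Of the 11 measures that could be tested, 4 differed over time (36.4%), against 36.3% of 278 tests over all labels and measures. That is close to the background. The adjusted p-values were taken over all 278 tests.

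Ribosomal protein genes, which supply the translation machinery, took a growing part of the transcripts until 5 dpi. The median share was 9.34%, 9.59%, 10.1% and 10.1% in replicates A to D at 1 dpi and 9.45%, 11.1% and 10.7% in replicates A to C at 2 dpi. At 3.5 dpi it was 11.4%, 11.9%, 10.9% and 12.1% in replicates A to D. At 5 dpi it was 11.8%, 12.4% and 12.4%, above every 1 dpi mouse, and at 7 dpi 11.3%, 11% and 10.6%.

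The ribosomal share differed over time (permutation test of the F statistic over 17 mice, adjusted p = 0.00466), and its mean at 5 dpi was 2.42 percentage points above that at 1 dpi. Over all cells of the same mice, of every type, the median ribosomal share also went up, from 8.86% ± 1.06 (SD, n = 4) at 1 dpi to 12% ± 0.152 (n = 3) at 5 dpi. Cx3cr1-high M2 macrophages stood 0.921 points above all cells of their mouse at 1 dpi and 0.192 points above them at 5 dpi, on the means over mice. The part of the whole-sample shift in the result was not tested. In cells with the name in both Harmony and BBKNN the rise was 2.88 points, with an adjusted p of 0.0515.

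Transcription factor genes took the smallest part at 3.5 dpi. Their median share was 2.69%, 2.69%, 3.12% and 2.85% in replicates A to D at that time, compared with 3.51%, 3.98%, 3.46% and 3.30% at 1 dpi. At 7 dpi it was 3.93%, 3.58% and 3.8%. The 3.5 dpi mice lay below all 1, 5 and 7 dpi mice, while 2 dpi replicate C, at 3.0%, lay among them. The share differed over time in the permutation test of the F statistic (adjusted p = 0.0388), but the call was lost on leaving out any mouse of 3.5 or 7 dpi, 1 dpi replicate A or C, 2 dpi replicate B or 5 dpi replicate B. The largest adjusted p was then 0.108, and with the replicate letter as a block it was 0.137. Over all cells of the mice the median share was lowest at 3.5 dpi too (2.89% ± 0.190, SD, n = 4).

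Protein-coding transcripts fell from a mean of 94.0% ± 0.896 (SD, n = 4) of UMIs at 1 dpi to 91.7% ± 0.356 (n = 3) at 7 dpi. This measure differed over time (permutation test, adjusted p = 0.00766) and kept its call without any single mouse. The call was lost in cells with the same M2 label in Harmony and BBKNN (-1.72 points, adjusted p = 0.125, permutation test). Over all cells of the mice the median share also fell, from 93.5% ± 1.17 (n = 4) at 1 dpi to 90.2% ± 0.544 (n = 3) at 7 dpi. The part of this sample-wide fall in the result was not tested. Long intergenic noncoding RNAs, transcripts that encode no protein, went from 1.19% ± 0.202 (n = 4) at 1 dpi to 1.59% ± 0.217 (n = 3) at 7 dpi, with an adjusted p of 0.12 in the permutation test. The remaining noncoding classes were smaller. Antisense RNAs had group means between 0.0547% and 0.0638% after injury (adjusted p = 0.622, permutation test), and bidirectional promoter lncRNAs between 0.0053% and 0.0123% (adjusted p = 0.138, permutation test).

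The median share of snoRNA, miRNA and snRNA genes was 0 at every time point after injury, so these could not be tested. Between 14.0% and 45.8% of the cells of an injured mouse had any snoRNA UMI. For miRNA genes the range was 9.09 to 43.9%, and for snRNA genes 6.35 to 40.7%.

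Mitochondrial transcripts are often raised in stressed or damaged cells. The median share was 3.85%, 4.50%, 2.48% and 4.08% in replicates A to D at 1 dpi. It was 5.98%, 4.67% and 4.54% at 2 dpi and 4.94%, 5.23%, 3.20% and 4.24% at 3.5 dpi. At 5 dpi it was 3.04%, 4.02% and 3.61%, and at 7 dpi 6.36%, 5.39% and 5.49%. Every 7 dpi mouse lay above every 1, 3.5 and 5 dpi mouse.

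The mean mitochondrial share at 7 dpi was 2.02 percentage points above that at 1 dpi, with an adjusted p of 0.0531 in the permutation test. Without 1 dpi replicate B or without 3.5 dpi replicate C it passed the threshold, with a lowest adjusted p of 0.0325, as it did with the replicate letter as a block (adjusted p = 0.0393). By the same test the adjusted p was 0.0603 with at least 30 cells, 0.0836 with means over cells and 0.0847 with a stricter filter. The adjusted p was 0.237 in cells with the same M2 label in Harmony and BBKNN, and 0.287 in cells with 5000 to 15000 UMIs. Over all cells of the mice the median share also rose, from 4.12% ± 1.29 (SD, n = 4) at 1 dpi to 7.03% ± 0.508 (n = 3) at 7 dpi. The share of cells above 10% mitochondrial UMIs was 15.1% ± 3.49 (SD, n = 3) at 7 dpi and 3.57% ± 1.49 (n = 4) at 3.5 dpi. In the 11 cells of uninjured replicate B the median was 14.4%. The median over all cells of that mouse was 18.4%, and the mean of such medians over the uninjured mice was 14.8% ± 4.49 (n = 4). The part of this sample-wide level in the uninjured cells was not tested.

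Heat shock protein genes, which are induced by stress and by tissue dissociation, took 0.782% ± 0.0840 (SD, n = 4) of UMIs at 1 dpi and 0.530% ± 0.0162 (n = 4) at 3.5 dpi. At 7 dpi the values were 1.18%, 0.806% and 0.544% in replicates A to C, a spread wider than the difference between the means at 1 and 3.5 dpi. The adjusted p was 0.209 in the permutation test and 0.0386 without 7 dpi replicate C. The authors' doublet score, the fraction of artificial doublets among a cell's nearest neighbours, had a mean of 0.203 ± 0.0279 (n = 4) at 1 dpi and 0.0877 ± 0.00873 (n = 3) at 7 dpi. It differed over time in the permutation test (adjusted p = 0.0381), a call that was lost without any mouse of 3.5 or 7 dpi, without 1 dpi replicate A, B or C, without 5 dpi replicate A, or with the replicate letter as a block (adjusted p = 0.0955). Over all cells of the mice the median doublet score also fell, from 0.197 ± 0.0302 (n = 4) at 1 dpi to 0.0913 ± 0.0315 (n = 3) at 7 dpi. The part of this sample-wide fall in the result was not tested. The paper ran doublet detection on each dataset individually and optimised a parameter for it, so scores of different libraries may not share a scale. All deposited cells had been called singlets.

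**Figure D4:**
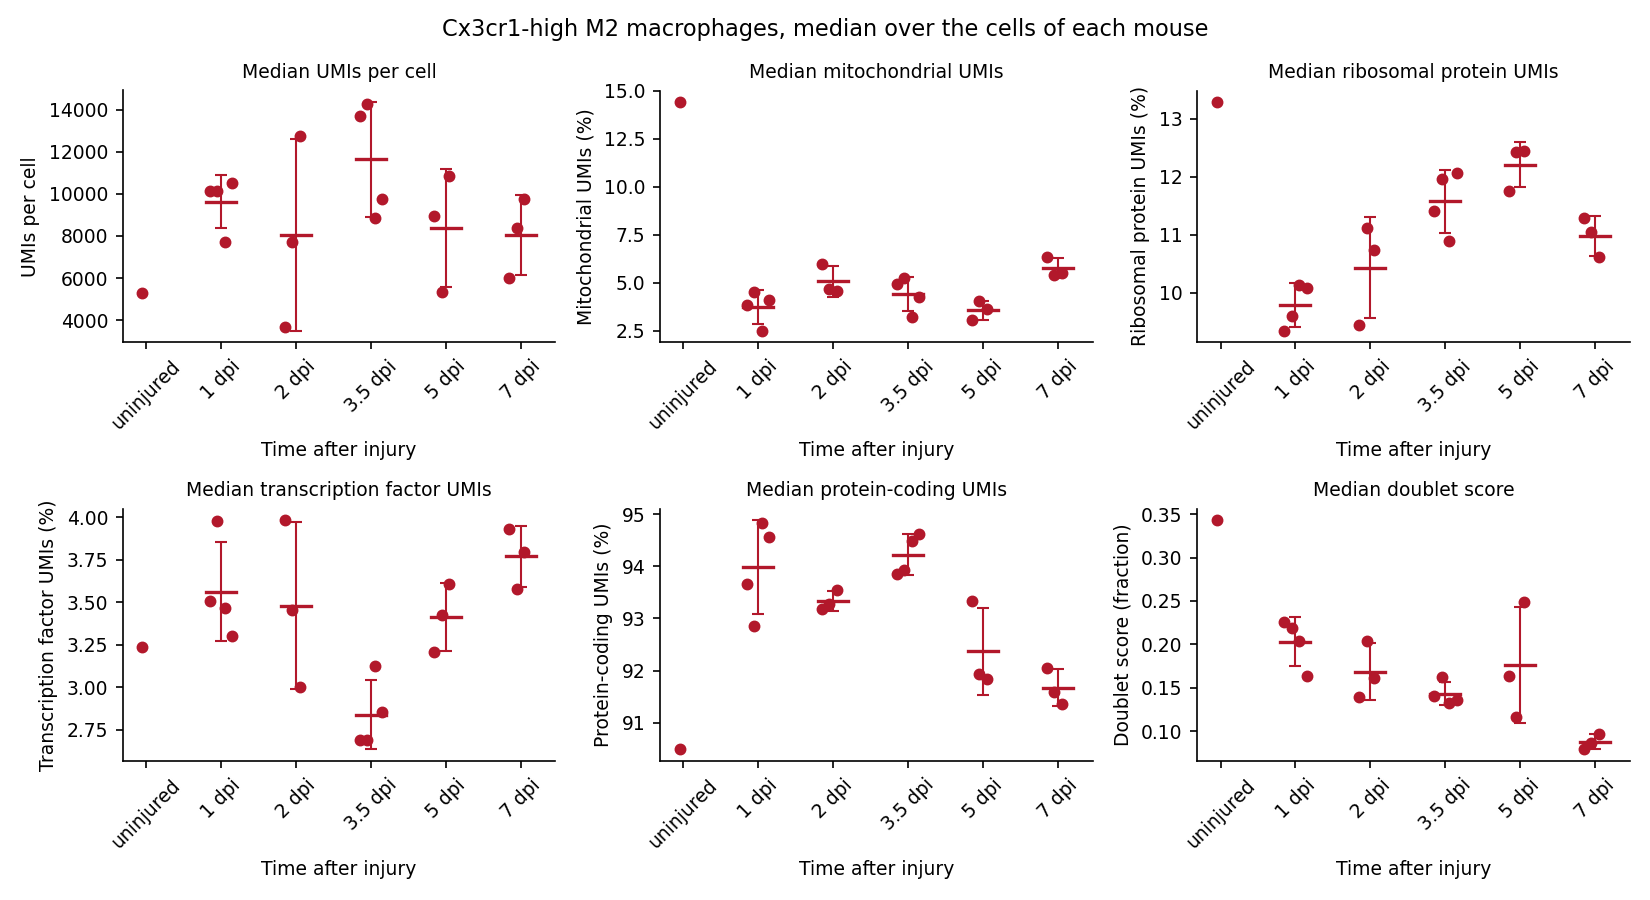
Median over the Cx3cr1-high M2 cells of each mouse (points; mice with at least 10 cells) of 6 per-cell measures (y axes; UMIs per cell, % of UMIs, or the doublet score as a fraction) by time after injury (x axes), with the mean ± SD of time points with more than 1 mouse. The y axes do not start at 0. The ribosomal protein share rose to 11.8-12.4% at 5 dpi, the transcription factor share was lowest at 3.5 dpi, and UMIs per cell varied within time points as much as between them.

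The number of UMIs per cell varied too much between libraries to separate the time points. The median was 10136, 10159, 7735 and 10505 in replicates A to D at 1 dpi and 13694, 14267, 8846 and 9772 at 3.5 dpi. At 2 dpi it ranged from 3648 in replicate A, with 15035 reads per cell, to 12750 in replicate C, with 57751 reads per cell. The adjusted p over time was 0.535 for UMIs and 0.617 for genes in the permutation test. In cells with 5000 to 15000 UMIs, an alternative chosen after seeing the data, the median number of genes was 2713 ± 160 at 1 dpi (SD, n = 4), with 2839 ± 160 found later at 3.5 dpi (n = 4) and 2571 ± 312 at 7 dpi (n = 3).

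Cells of a mouse also varied among themselves. The upper quartile of UMIs per cell was between 1.48 and 2.16 times the lower quartile within a mouse. For the mitochondrial share this ratio was between 1.5 and 2.64, and for the ribosomal share between 1.23 and 1.58. A stricter filter (1000 or more genes, 2000 or more UMIs, mitochondrial share up to 15%) kept 5852 of the 6161 cells (95%). The part kept was lowest in uninjured replicate B (54.5% of 11 cells) and, among injured mice, in 2 dpi replicate A (80.3%).

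Compared with the Cx3cr1-low M2 macrophages of the same mouse, the Cx3cr1-high cells had a lower mitochondrial share in 16 of 17 mice and a higher ribosomal protein share in 17 of 17. The clusters were made from the same transcripts, so these levels are a description with no test. What could be tested was whether the gap changed over time, and it did for 10 of 11 measures, or 90.9% (permutation test of the F statistic over 17 mice, Benjamini-Hochberg over the 11). The tests of different measures share the same cells. No other pair of labels was set beside this one, so the 90.9% has no background. The cells behind a gap also differed by day. BBKNN gave the same name to 14.2% of Cx3cr1-high cells at 1 dpi and 96.0% at 5 dpi, on the means over mice. In cells with the same M2 label in Harmony and BBKNN, 5 of 11 gaps changed over time. Among cells with 5000 to 15000 UMIs it was 0 of 13.

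The mitochondrial gap widened with time. Cx3cr1-high minus Cx3cr1-low was 0.77, -0.80, -0.97 and -0.35 percentage points in replicates A to D at 1 dpi. It was -1.51, -0.93, -0.87 and -1.10 at 3.5 dpi. At 7 dpi it was -2.92, -2.90 and -3.38 in replicates A to C, beyond every mouse of the earlier times. The change from 1 to 7 dpi was -2.73 points (adjusted p = 0.00143, permutation test). At 7 dpi the mean share was 5.75% ± 0.531 (SD, n = 3) in Cx3cr1-high and 8.81% ± 0.495 (n = 3) in Cx3cr1-low M2 macrophages. In the same mice it was 5.73% in Cxcl10+, 6.08% in inflammatory and 6.77% in patrolling monocytes. The Cx3cr1-high value thus lay near those of the monocytes, and the Cx3cr1-low value was the highest of these labels.

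The gap in UMIs per cell opened in the other direction. On the log2 scale it was -0.32, -0.35 and -0.23 in replicates A to C at 2 dpi, where Cx3cr1-high cells had fewer UMIs in every mouse, and 0.21, 0.47 and 0.85 at 7 dpi, where they had more in every mouse. The change from 1 to 7 dpi was 0.62 (adjusted p = 0.0022, permutation test). Genes per cell moved the same way, from -0.12 at 1 dpi to 0.27 at 7 dpi on the log2 scale (adjusted p = 0.00033, permutation test). Mean UMIs per cell were lower at 7 dpi than at 1 dpi in both labels. They went from 9634 to 8033 in Cx3cr1-high cells and from 10556 to 5538 in Cx3cr1-low cells. At 7 dpi they were 8474 in patrolling, 8194 in Cxcl10+ and 5612 in inflammatory monocytes.

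The mean ribosomal gap was smallest at 2 dpi, with 0.31, 1.05 and 0.50 points in replicates A to C, and largest at 7 dpi, with 2.99, 2.23 and 1.83 points. At 1 dpi it was 2.10, 2.39, 1.27 and 1.31 points in replicates A to D. It differed over time with an adjusted p of 0.00235 in the permutation test. The transcription factor gap changed sign, from a mean of 0.28 ± 0.243 points (SD, n = 4) at 1 dpi to -0.47 ± 0.329 (n = 3) at 7 dpi (adjusted p = 0.00506, permutation test). Every 1 and 2 dpi mouse was above 0 and every 3.5 and 7 dpi mouse below it, with 5 dpi replicate C above 0 and the other 5 dpi mice below.

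**Figure D5:**
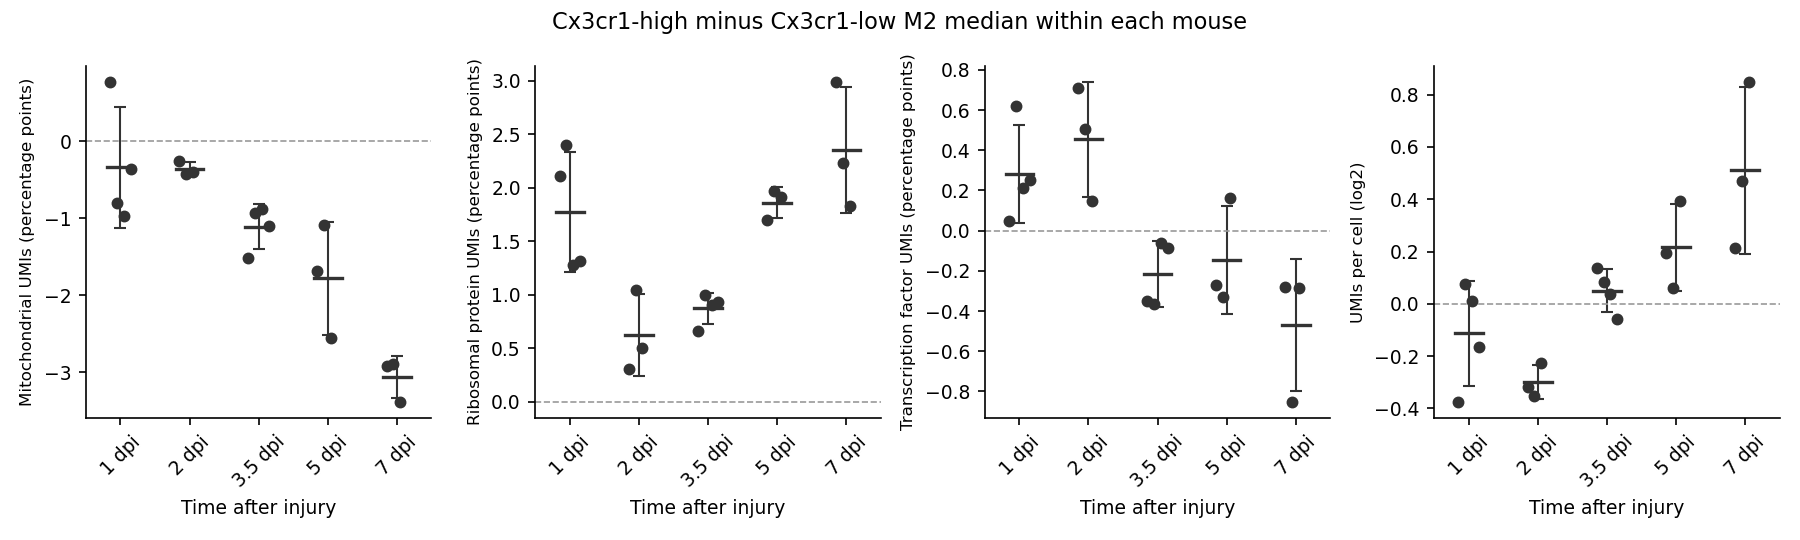
Median of the Cx3cr1-high minus that of the Cx3cr1-low M2 macrophages within each mouse (y axes; percentage points of UMIs, or log2 for UMIs per cell) by time after injury (x axes); points are mice, lines and bars the mean ± SD, and the dashed line marks no difference. The mitochondrial gap went from between -0.97 and 0.77 points at 1 dpi to between -3.38 and -2.90 points at 7 dpi, while the gap in UMIs per cell went from negative at 2 dpi to positive at 7 dpi.

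The gap in UMIs per cell changed over the same days as these gaps, and its part in them was not settled by comparing cells of like depth. Among cells with 5000 to 15000 UMIs, an alternative chosen after seeing the data, 0 of 13 gaps passed the threshold over time (permutation test), and 3 had an unadjusted p under 0.05 (ribosomal protein, transcription factor and protein-coding shares). The change of the ribosomal gap from 1 to 2 dpi was -1.53 points there, compared with -1.15 in all cells (adjusted p = 0.12, permutation test). From 1 to 7 dpi the transcription factor gap changed by -0.56 points, compared with -0.75, and the protein-coding gap by 1.13 points, compared with 1.41. The change of the mitochondrial gap from 1 to 7 dpi was -1.39 points, compared with -2.73 (adjusted p = 0.206, permutation test), and its mean was -0.32 ± 0.714 (SD, n = 4) at 1 dpi and -1.72 ± 0.643 (n = 3) at 7 dpi. In that window the level difference was still seen, with a lower mitochondrial share in Cx3cr1-high cells in 16 of 17 mice and a higher ribosomal share in 17 of 17. In cells with the same M2 label in Harmony and BBKNN, 5 of 11 gaps differed over time, the mitochondrial gap among them (-2.79 points, adjusted p = 0.0134, permutation test).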

How the data were processed

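The data were per-cell tables of 21 mice, read with the cell type labels as deposited. The authors aligned 10x reads to mm10 (Cell Ranger 3.1.0 and Seurat 3.1.5 are named in the submitters' processing notes), subtracted ambient RNA with SoupX, filtered cells and discarded those that DoubletFinder called doublets. The per-cell UMI totals deposited by the authors are expected counts after SoupX, not normalized, and genes per cell and reads per cell are deposited counts. The deposited percent values are shares of a cell's UMIs from a gene set. The fraction values deposited by the authors are DoubletFinder scores and SoupX contamination. No gene values were used here.

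Cells were counted per mouse with pandas 2.3.3 and numpy 2.4.6 in Python 3.11.15, tested with scipy 1.17.1, and drawn with matplotlib 3.10.9. The mouse was the unit of every test. F statistics over time points were tested with 100000 permutations, on arcsine square root shares or on medians over at least 10 cells (UMIs and genes as log2), in time points with at least 2 such mice. Cell numbers were compared by edgeR 4.0.16 (R 4.3.3) with total cells as library size and no TMM. P-values were adjusted by Benjamini-Hochberg, with a threshold of 0.05. The reference was uninjured muscle for shares of all cells and for shares of monocytes and macrophages. It was 1 dpi elsewhere, since too few uninjured cells were present, a choice made after seeing their number. Both tests were tried on simulated shares. The cells, labels and measures were chosen with earlier results of these data known. The text names the Cx3cr1-high M2 label and, for comparison, the Cx3cr1-low M2, monocyte, neutrophil and dendritic labels.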

Additional observations from a re-analysis of the deposited data

Results flagged for a closer look

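Among 29 groups of 4 mice examined for a mouse far from the others, 2 held one, and chance flags about 1 group in 20. At 1 dpi, the Cx3cr1-high M2 cells of replicate C had a median of 7735 UMIs, compared with 10136 to 10505 in the other mice. Also at 1 dpi, long intergenic noncoding RNAs took a median of 1.48% of UMIs in replicate B, which had 41 such cells, and 1.05 to 1.13% in the others.

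By the Harmony labels, both M2 labels changed differently over time in 10 measures, and in 5 where BBKNN gave the cells the same M2 label. The gap between Cx3cr1-high and Cx3cr1-low cells moved from 1 to 7 dpi by 0.62 (log2) in UMIs, 0.39 (log2) in genes, -2.73 percentage points in mitochondrial, 0.144 in heat shock protein, -0.75 in transcription factor, 0.341 in long intergenic noncoding, -0.00615 in antisense and 1.41 in protein-coding UMIs. From 1 to 2 dpi it moved by -1.15 points in ribosomal protein UMIs and by -0.0338 in the doublet score. The heat shock protein call (adjusted p = 0.0472, permutation test) was lost on leaving out any injured mouse but 7 dpi replicate C. The doublet score call (adjusted p = 0.0472, permutation test) was lost on leaving out any injured mouse but 2 dpi replicate B, 3.5 dpi replicate A or 7 dpi replicate A. The antisense call (adjusted p = 0.0323, permutation test) was lost without any 2 dpi mouse, 1 dpi replicate D, 3.5 dpi replicate C or D, or 7 dpi replicate C.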

How the results depend on the processing

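Over 1014 alternative values, 883 kept their direction and their side of the threshold (counts within 1.5 times), and 9 reversed. The share over time and the Cx3cr1-high share of M2 macrophages kept theirs in all alternatives run. Direction was scored at the day of the main result, 3.5 dpi for the first and 5 dpi for the second. A moved maximum therefore did not count as a change. The highest mean share was at 5 dpi with BBKNN labels and at 1 dpi with Scanorama labels. For the time course the adjusted p ran from 1.68e-09 to 0.00151 over alternatives and the difference at 3.5 dpi was 13.4 to 14.4 points with a mouse left out. Its size moved with the label: 20.9 points with BBKNN labels, 0.962 with Scanorama labels and 10.8 with the name in both Harmony and BBKNN. Where a value changed, the cause was not tested. Uninjured shares rest on 19 cells.

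With monocytes and macrophages as denominator, log2 fold changes were -0.013 (1 dpi) and 0.074 (2 dpi) against uninjured muscle, and 0.82, 0.34 and -0.041 for the last 3 steps. BBKNN labels gave 1.61, 2.12, 0.085 and -1.44 for the 4 steps, with adjusted p of 0.0139, 0.00264, 0.896 and 0.0824. Scanorama labels gave -2.23 from 1 to 2 dpi (adjusted p = 0.0446 in edgeR), 0.22 from 3.5 to 5 dpi and -1.62 from 5 to 7 dpi. The name in both Harmony and BBKNN gave 1.62, 2.50 and -1.51 for the steps to 2, 3.5 and 7 dpi. With TMM the steps to 5 and 7 dpi were -1.88 (adjusted p = 0.00719) and -1.34 (adjusted p = 0.233). By the exact test, differences of 5.08, 7.13, 8.42 and 2.93 points from uninjured muscle (1, 2, 5 and 7 dpi) and of -5.49 points from 5 to 7 dpi missed the threshold. With a mouse left out, the step to 5 dpi ranged from -1.12 to -0.54, that to 7 dpi from -1.67 to -1.07, and the measures that differed over time numbered 2 to 4. They numbered 1, and the gaps between M2 labels 5, in cells with the same M2 label in Harmony and BBKNN. In cells with 5000 to 15000 UMIs, 0 of 13 gaps passed. At 2 dpi the difference from 1 dpi ran from -0.85 to 0.054 (log2 UMIs) and from -0.49 to 0.074 (log2 genes) with a mouse left out. The gap in bidirectional promoter lncRNA became 0.000209 with means over cells and 0.0010 with the stricter filter.

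The sample titles give each mouse a replicate letter and do not say what mice with the same letter share. The paper states that mice of several time points were collected together. Whether a letter marks such a collection could not be told from the titles. Over 48 pairs of mice with the same letter, deviations of cell type shares had a median correlation of -0.02, 20 pairs were above 0.1, and 4 of 21 mice correlated best with their own letter. With the replicate letter as a block, the step from 5 to 7 dpi was -1.45 (adjusted p = 0.0719), and no other share, label match or step changed its call. Of the measures over time, the transcription factor share (adjusted p = 0.137) and the doublet score (adjusted p = 0.0955) lost their call and the mitochondrial share gained it (adjusted p = 0.0393), which left 3 called in place of 4. Of the gaps, 7 were called in place of 10, without those in heat shock protein (adjusted p = 0.0873), antisense (adjusted p = 0.0504) and doublet score (adjusted p = 0.0523), by permutation test.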
